A study of Mus musculus with 6 samples.

Results

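The ubiquitin ligases and diacylglycerol kinases linked to T cell anergy were followed in activated mouse CD4 T cells that had or had not received VIP (vasoactive intestinal peptide), a neuropeptide that signals through cAMP. The 9 genes were Cblb, Cbl, Itch, Nedd4, Rnf128, Peli1, Ndfip1, Dgka and Dgkz, and they were taken as every non-control array probe that the scanner files name for one of them. This gave 18 probes of 41174 on the array, with 4 for Itch, 3 for Ndfip1, 2 each for Cblb, Cbl, Nedd4 and Peli1, and 1 each for Rnf128, Dgka and Dgkz. All 18 passed the filter on dim spots, and all 9 genes were among the 22867 tested.

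Both groups were CD4 T cells from spleens of the C57BL/6J strain, and both had been activated with PMA, a phorbol ester, plus ionomycin, a calcium ionophore. The first group had VIP and the second did not. Each of 6 two-colour Agilent arrays set the VIP-treated RNA of 1 biological replicate against its untreated RNA, with VIP in Cy5 on replicates 1, 3 and 5 and in Cy3 on replicates 2, 4 and 6. Per the labels, a sample pooled 5 to 10 spleens of males and females aged 6 to 32 weeks, CD4 cells were purified on anti-CD4 magnetic beads, and labelling started from 250 ng of total RNA. How much VIP was used, and for how long, is not given in the sources. In such bulk samples, fewer cells of a type and less RNA per cell cannot be told apart.

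Anergy is a state in which a T cell that met antigen without costimulation responds poorly to it afterwards. Ubiquitin ligases of the Cbl, Nedd4 and GRAIL kinds help to hold this state by marking signalling proteins for degradation or sorting, and diacylglycerol kinases by converting diacylglycerol, the messenger that activates RasGRP and protein kinase C, into phosphatidic acid. PMA stands in for diacylglycerol and is not a substrate of these kinases.

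The probes on which the results turn are printed here because 2 probes of Cblb and of Peli1 gave different values, and because Rnf128, Dgka and Dgkz rest on 1 probe each. Each is a 60-base probe read from the scanner files, 5′ to 3′, with positions of the files on mm9. Whether a probe lies in coding sequence or in a UTR was not analysed here.
Cblb, first probe, chr16:52050919-52050978, plus strand: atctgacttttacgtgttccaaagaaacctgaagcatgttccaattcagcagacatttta
Cblb, second probe, chr16:52120279-52120338, plus strand: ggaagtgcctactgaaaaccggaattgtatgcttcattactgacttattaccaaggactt
Rnf128, chrX:136206442-136206501, plus strand: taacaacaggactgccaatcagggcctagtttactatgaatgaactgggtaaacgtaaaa
Dgka, chr10:128157256-128157315, minus strand: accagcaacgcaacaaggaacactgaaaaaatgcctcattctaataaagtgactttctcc
Dgkz, chr2:91773236-91773295, minus strand: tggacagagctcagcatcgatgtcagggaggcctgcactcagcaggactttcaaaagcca
Peli1, first probe, chr11:21049295-21049354, plus strand: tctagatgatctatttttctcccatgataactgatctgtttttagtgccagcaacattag
Peli1, second probe, chr11:21048227-21048286, plus strand: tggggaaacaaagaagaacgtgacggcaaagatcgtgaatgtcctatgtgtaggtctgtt

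The share of spots well above background ran from 56.9% to 99.9% over the arrays and channels. The T cell genes Cd4 and Cd3e were well above background on 6 of 6 arrays in both channels, with log2 ratios of VIP over untreated of 0.04 ± 0.041 and 0.05 ± 0.044 (SE, n = 6, limma adjusted p = 0.77 and 0.70). Of 11 T cell markers 2 were called, both higher, Cd2 at 0.22 and Cd28 at 0.28 (limma adjusted p = 0.016 and 0.012). Of the 10 B cell markers, 8 were also well above background on every array, and none of the 10 was called. Of 8 monocyte and macrophage markers, 6 were well above background on every array, and 1 was called, Cd14, which was higher at 0.57 (limma adjusted p = 0.0033); without replicate 5 there were 2, both higher. The summed intensity of these 8 ran from 12600 to 26000 with VIP and from 10300 to 26000 untreated. Their part in the values below was not tested. Cd2, Cd28 and Cd14 were named after their values were seen. Over all genes tested 2.11% were called with 6 arrays and 3.61% without replicate 5. Replicate 5 stood apart from the other arrays. Its log2 ratio was 4.08 for Ddx3y and 4.18 for Eif2s3y, both Y-linked, and -3.29 for Xist, which is expressed from the inactive X chromosome, where the other 5 arrays lay between -0.34 and 0.46 for these 3 genes. On this array the VIP and untreated RNAs thus differed in sex-linked transcripts, although the labels give both to 1 replicate, and 13% of its spots carried an outlier flag, against 0.57% to 4.4% on the others. Results are therefore given with and without it.

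None of the 9 genes was called with VIP over the 6 arrays. Their fitted log2 ratios lay between -0.11 for Dgkz and 0.24 for Cblb, with 5 above 0, 4 below, a median of 0.00 and a median absolute value of 0.086. Over all genes tested the median absolute log2 ratio was 0.044. By the same limma fit, with a Benjamini-Hochberg adjusted p under 0.05, 483 of 22867 genes were called, which is 2.11%. At an unadjusted p under 0.05, 1 of the 9 passed, Rnf128, where 12.9% of all genes did. At probe level 0 of 18 probes were called, against 2.15% of all probes, and 2 passed at an unadjusted p under 0.05, against 12.9% of all probes. Without replicate 5, 1 of the 9 was called, Cblb, against 3.61% of all genes. The 95% intervals over 6 arrays stayed within 0.50 on either side of 0 on the log2 scale for all 9 genes.

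**Figure D1:**
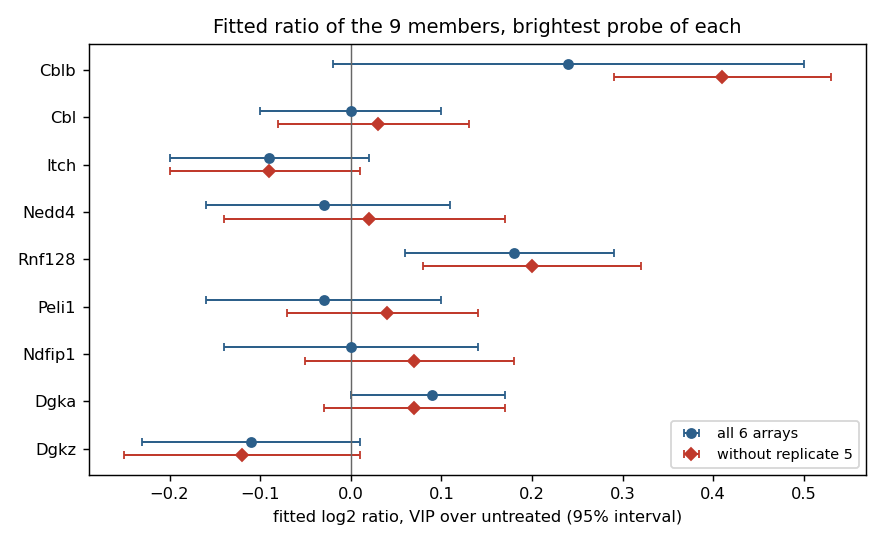
Fitted log2 ratio of VIP over untreated for the 9 genes, each by its brightest probe, with 95% intervals from limma. Circles use all 6 arrays, with 5 values for Itch and Nedd4, and diamonds leave out replicate 5. The Cblb value is 0.24 with 6 arrays and 0.41 without replicate 5, and its interval excludes 0 only in the second case.

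Cblb encodes a RING-type ligase that raises the threshold for T cell activation, and mice lacking it have T cells that respond without CD28 costimulation. The normalized log2 intensity of its first and brighter probe in replicates 1 to 6 was 10.51, 9.98, 9.75, 9.24, 9.36 and 9.13 in the VIP channel, against 10.01, 9.72, 9.40, 8.90, 9.93 and 8.55 in the untreated channel. The log2 ratios were 0.49, 0.26, 0.36, 0.33, -0.58 and 0.58. By this probe the transcript was thus higher with VIP on 5 of 6 arrays and lower on replicate 5. The intensities of both channels overlapped widely between arrays.

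Over 6 arrays the fitted log2 ratio of Cblb was 0.24 ± 0.12 (SE, n = 6, 95% interval -0.02 to 0.50, limma adjusted p = 0.43). Without replicate 5 it was 0.41 ± 0.055 (SE, n = 5, 95% interval 0.29 to 0.53), a 1.33-fold higher level with a limma adjusted p of 0.00091. The mean log2 ratio within each of the 3 slides was 0.38, 0.34 and 0.00, and the slide at 0.00 carried replicates 5 and 6, which had the lowest and the highest ratio of the 6.

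The second Cblb probe was dim, well above background on 3 of 6 arrays in each channel. Its log2 ratios were -0.18, 0.10, 0.26, 0.08, -0.32 and -0.07, with replicate 5 again the lowest. The fitted value was -0.02 ± 0.068 with 6 arrays and 0.04 ± 0.062 without replicate 5, and no call was made with either. The rise without replicate 5 therefore rests on the first probe printed above, and the difference between the probes was not tested.

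Rnf128 encodes GRAIL, a membrane-bound RING ligase induced in anergic CD4 T cells. Its log2 intensity was 9.39, 9.24, 9.16, 8.51, 9.44 and 8.15 with VIP, against 9.20, 9.18, 9.04, 8.10, 9.41 and 7.88 untreated. The log2 ratios of 0.19, 0.06, 0.12, 0.41, 0.03 and 0.27 were above 0 on 6 of 6 arrays, and each slide mean was above 0 too (0.12, 0.27 and 0.15). The fitted log2 ratio was 0.18 ± 0.052 (SE, n = 6, 95% interval 0.06 to 0.29), or 1.13-fold, with an unadjusted p of 0.0058 and a limma adjusted p of 0.14. It did not pass the adjusted threshold without replicate 5 either (0.20 ± 0.055, n = 5, limma adjusted p = 0.074). The gene is X-linked, and its ratio on replicate 5, the array that differed in Xist and Y-linked transcripts, was the lowest of the 6. The next lowest was 0.06 on replicate 2. The part of the sex-linked difference in the Rnf128 ratio was not tested.

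**Figure D2:**
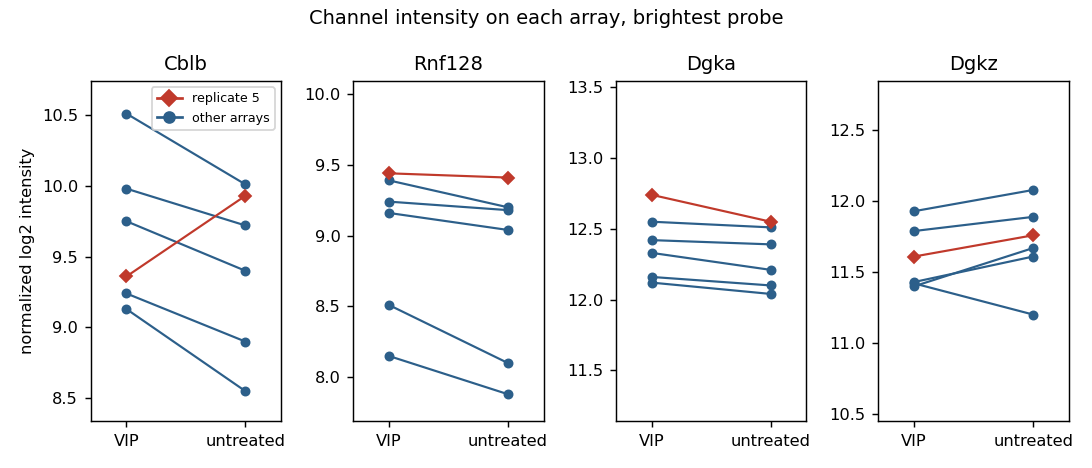
Normalized log2 intensity in the VIP channel (left) and the untreated channel (right) of each array for the brightest probe of Cblb, Rnf128, Dgka and Dgkz; each line is 1 array and the diamonds are replicate 5. Lines descend to the right on 5 of 6 arrays for Cblb and on 6 of 6 for Rnf128 and Dgka, and ascend on 5 of 6 for Dgkz.

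Cbl encodes c-Cbl, the close relative of Cblb that acts on receptors and kinases near the T cell receptor. Its brighter probe (chr9:43961868-43961927) had log2 ratios of 0.10, -0.09, 0.07, 0.07, -0.07 and -0.07, and the fitted value was 0.00 ± 0.044 (95% interval -0.10 to 0.10). The second Cbl probe (chr9:43958124-43958183) ran from -0.55 on replicate 5 to 0.30 on replicate 4, with a fitted value of -0.08 ± 0.11 that was 0.05 ± 0.078 without replicate 5.

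The HECT-type ligases Itch and Nedd4 mark phospholipase C, protein kinase C theta, JunB and other proteins in T cells. The brightest of the 4 Itch probes had log2 ratios of -0.11, -0.05, -0.26, 0.07 and -0.01 on replicates 1 to 4 and 6, its spot on replicate 5 being left out for an outlier flag. The fitted value was -0.09 ± 0.049 (n = 5, 95% interval -0.20 to 0.02, limma adjusted p = 0.49). With the flagged spot kept, at a log2 ratio of 0.13, the fitted value was -0.04 (limma adjusted p = 0.86). The other 3 Itch probes were dimmer and had fitted values of -0.09, 0.05 and 0.01, so the probes of this gene did not share a sign.

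Nedd4 had log2 ratios of 0.08, 0.16, -0.13, -0.11 and -0.14 on its brighter probe, without replicate 3, where the spot was flagged. The fitted value was -0.03 ± 0.060 (n = 5, 95% interval -0.16 to 0.11). With that flagged spot kept, its ratio of 1.02 on replicate 3 moved the fitted value to 0.14. The second Nedd4 probe was above 0 on 5 of 6 arrays, between -0.09 and 0.23, with a fitted value of 0.09 ± 0.043 (limma adjusted p = 0.46). Another probe, which the files name EG639396, an older name of Nedd4 in the RefSeq gene table, is not counted among the 18, and it was well above background on 2 arrays with VIP and 1 untreated, too few for the filter.

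Ndfip1 encodes a membrane adaptor that recruits and activates Itch and Nedd4. Its brightest probe had log2 ratios of 0.15, -0.14, 0.12, 0.18, -0.27 and -0.03, and a fitted value of 0.00 ± 0.064 (95% interval -0.14 to 0.14). A second Ndfip1 probe (chr18:38620206-38620265) had 0.08, -0.03, 0.09, 0.29, 0.38 and 0.10, higher with VIP on 5 of 6 arrays. Its fitted value of 0.15 ± 0.057 had an unadjusted p of 0.023 and a limma adjusted p of 0.28. On replicate 5 this probe had its highest ratio of the 6, while the other 2 Ndfip1 probes had their lowest there, -0.27 and -0.38.

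Peli1 encodes a ligase of the Pellino family that limits T cell activation by marking the NF-kB subunit c-Rel. Its brighter probe had log2 ratios of -0.26, -0.25 and -0.63 on the arrays with VIP in Cy5 and of 0.29, 0.46 and 0.23 on those with VIP in Cy3. The sign followed the dye on 6 of 6 arrays. The fit placed -0.35 in the dye term and left a VIP effect of -0.03 ± 0.058 (n = 6, 95% interval -0.16 to 0.10, limma adjusted p = 0.91). The second Peli1 probe ran the other way round on the 5 arrays used. It had 0.45 and 0.13 on replicates 1 and 3 and -0.08, -0.06 and -0.15 on replicates 2, 4 and 6. Its spot on replicate 5 was flagged and left out, and that spot had -0.24, below 0 although VIP was in Cy5. Without that spot the dye term of the second probe was 0.19 and its VIP effect 0.10 ± 0.057 (n = 5, limma adjusted p = 0.55). Neither probe of Peli1 was called.

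**Figure D3:**
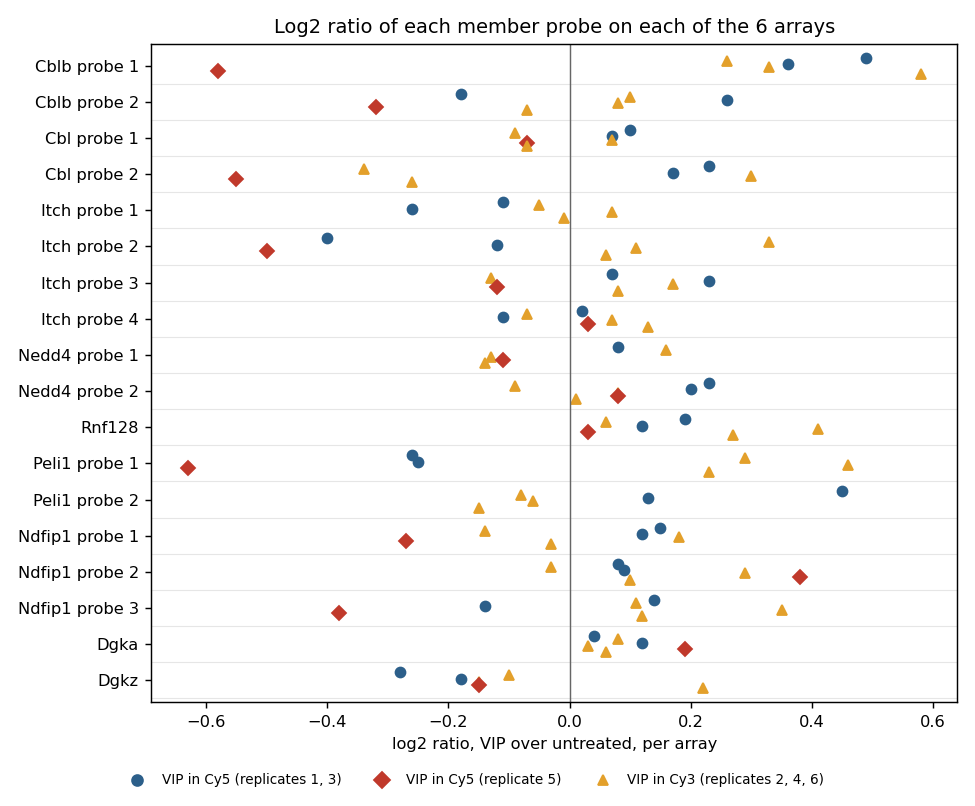
Log2 ratio of VIP over untreated for each of the 18 probes on each array; circles are replicates 1 and 3 and diamonds replicate 5 (VIP in Cy5), triangles are replicates 2, 4 and 6 (VIP in Cy3), and the brightest probe of a gene is numbered 1. Replicate 5 is the lowest point in 8 of the 15 probes that have all 6 values, and for Peli1 probe 1 the triangles lie above 0 and the other points below it.

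The kinases Dgka and Dgkz are the main diacylglycerol kinases of T cells. Dgka had a log2 intensity of 12.55, 12.12, 12.33, 12.42, 12.74 and 12.16 with VIP, against 12.51, 12.04, 12.21, 12.39, 12.55 and 12.10 untreated. Its log2 ratios of 0.04, 0.08, 0.12, 0.03, 0.19 and 0.06 were above 0 on 6 of 6 arrays. The fitted value was 0.09 ± 0.040 (SE, n = 6, 95% interval 0.00 to 0.17, limma adjusted p = 0.40), or 1.06-fold. Replicate 5 had the highest ratio here, and without it the fitted value was 0.07 ± 0.045 (limma adjusted p = 0.52).

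Dgkz had a log2 intensity of 11.40, 11.79, 11.43, 11.93, 11.61 and 11.42 with VIP, against 11.67, 11.89, 11.61, 12.08, 11.76 and 11.20 untreated. Its log2 ratios were -0.28, -0.10, -0.18, -0.15, -0.15 and 0.22, below 0 on all arrays but replicate 6. The fitted value was -0.11 ± 0.054 (SE, n = 6, 95% interval -0.23 to 0.01, limma adjusted p = 0.46). Without replicate 6 it was -0.16 with a limma adjusted p of 0.16, also not called. The opposite signs of Dgka and Dgkz were not tested against each other.

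Of the 9 genes, 7 had a value on every array, and 2 of the 7, Rnf128 and Dgka, had the same sign on all 6. Among the 18595 genes with 6 values, 6.04% did. Replicate 5 was the lowest of the 6 arrays in 8 of the 15 probes with 6 values, while it was the lowest in 23.9% of all 27714 such probes on the array. Its median log2 ratio over 3 tested erythroid markers was -0.45. Of these 3 markers, 2 were well above background on all arrays, their summed intensity ran from 1570 to 13400 with VIP and from 1910 to 12300 untreated, and none was called. The part of these differences in the values of the 9 genes was not tested.

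The 3 genes whose 6 log2 ratios lay nearest to those of Cblb by Euclidean distance, of 18595 compared, were transcripts with no gene symbol in the files. AK049577 (probe at chr1:121597002-121597061) was at a distance of 0.13, with log2 ratios of 0.46, 0.26, 0.41, 0.35, -0.51 and 0.48. LOC100042016 was at a distance of 0.31 and AK084126 at 0.34. Their fitted values with 6 arrays were 0.24, 0.17 and 0.23, and none of the 3 was called. Without replicate 5 they were 0.40, 0.32 and 0.35. Since the 3 were picked for their likeness to Cblb, these values are a description and no test.

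The relatives of the 9 genes, other Nedd4-type, Pellino, GRAIL-like and diacylglycerol kinase genes, gave no call. Of 23 listed, 22 were tested, 0 rose and 0 fell, with a median log2 ratio of 0.033 beside 0.00 for all genes. By limma 2 of the 22 had an unadjusted p under 0.05, where 12.9% of all genes did. They were Smurf1, a HECT ligase (-0.14, adjusted p = 0.31), and Dgkh (0.13, adjusted p = 0.32). Without replicate 5 the counts were again 0 and 0. The share of all genes called was 2.11% with 6 arrays and 3.61% without replicate 5.

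The list of other ubiquitin regulators of T cell signalling and their adaptors had 2 of 23 members called, both higher. Its median was -0.004, and 2.11% of all genes were called. It was chosen with earlier results of these data known, so its share is a description and no test. Grap2 encodes the Gads adaptor between LAT and SLP-76 and is itself no ubiquitin regulator. It rose by a log2 ratio of 0.63 ± 0.055 (n = 6, limma adjusted p = 0.00034) and was higher on 6 of 6 arrays, between 0.45 and 0.82. Its 3 probes had fitted values between 0.06 and 0.63, and 2 of them were called. Ubash3a, which encodes a ubiquitin-binding negative regulator of T cell receptor signalling, rose by 0.31 ± 0.039 (n = 6, limma adjusted p = 0.0025). It too was higher on 6 of 6 arrays, and of its 2 probes, at 0.14 and 0.31, 1 was called. Without replicate 5 a further gene was called, Usp18, a protease that removes ISG15, at 0.42 (limma adjusted p = 0.00061), against 0.33 with 6 arrays (adjusted p = 0.067). Usp18 was named after its values were seen, and 3.61% of all genes were called without replicate 5.

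Among 27 signalling proteins on which these ligases and kinases act or whose activator they remove, 3 rose and 1 fell. The list median was 0.039, and 2.11% of all genes were called. As this list too was chosen with earlier results of these data known, its share is a description only. Prkca, a protein kinase C isoform activated by diacylglycerol, rose by 0.35 ± 0.048 on 5 of 5 arrays (limma adjusted p = 0.0058). Rasgrp1, the diacylglycerol-binding Ras activator of T cells, rose by 0.29 ± 0.056 on 5 of 5 arrays (limma adjusted p = 0.035). Of its 2 probes, at 0.16 and 0.29, 1 was called. Neither Prkca nor Rasgrp1 had a value on replicate 5. Rel, which encodes the Peli1 target c-Rel, rose by 0.26 ± 0.050 on 6 of 6 arrays (adjusted p = 0.028). Notch1, a receptor on which Itch acts, fell, with a log2 ratio of -0.25 ± 0.049 (n = 6, limma adjusted p = 0.030). Its ratio was below 0 on 4 of 6 arrays, and of its 2 probes, at -0.25 and -0.13, 1 was called. With the log ratios as deposited, 12 genes were called and 0 of them were lower, so Notch1 was not called there. Without replicate 5, where 3.61% of all genes were called, Pik3r1, a Cblb target, was called too. Its log2 ratio was then 0.20 (limma adjusted p = 0.027), against 0.17 with 6 arrays (limma adjusted p = 0.084). It was above 0 on 6 of 6 arrays. Of its 4 probes, between -0.04 and 0.26, 2 were called higher in the 6-array fit over probes. Pik3r1 was named after its values were seen.

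Transcripts associated with anergy had 5 of 33 members called, all higher, with a list median of 0.086, where 2.11% of all genes were called. The list was chosen with earlier results of these data known, so this share is a description and no test. The orphan nuclear receptor gene Nr4a3 rose by 0.44 ± 0.059 on 6 of 6 arrays (limma adjusted p = 0.0039). Crem, a cAMP-responsive repressor, rose by 0.31 ± 0.055 in the fit with its dye term (limma adjusted p = 0.028). It had values on 4 arrays, from -0.23 to 0.82, with 2 above 0 and 2 below, and none on replicate 5. Of its 6 probes 5 were called higher. The cytokine signalling inhibitors Socs1 and Socs3 rose by 0.30 ± 0.057 on 5 of 5 arrays and by 0.20 ± 0.041 on 5 of 6 (limma adjusted p = 0.030 and 0.034). Socs1 had no value on replicate 5. The fifth was Nr4a1, at 0.19 in the fit with its dye term (limma adjusted p = 0.036). Its ratios ran from -0.71 to 1.1, the latter on replicate 5, with 3 of 6 arrays above 0. Without replicate 5 Nr4a1 was not called (limma adjusted p = 0.052).

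Egr2 and Egr3, transcription factors linked to Cblb expression in anergic T cells, had log2 ratios of -0.30 and -0.20 with 6 arrays (limma adjusted p = 0.053 and 0.072). Egr2 was lower on 6 of 6 arrays and Egr3 on 5 of 6. In the 6-array fit over probes the only Egr2 probe was called lower. Of the 2 Egr3 probes, at -0.20 and -0.06, 0 were called. Without replicate 5 both genes were called lower, at -0.32 and -0.22 (limma adjusted p = 0.023 and 0.024). Nab2, a corepressor of Egr factors, was then called lower at -0.20 (adjusted p = 0.042), and Nr4a2 higher at 0.34 (adjusted p = 0.0050). The list then had 5 higher and 3 lower, where 3.61% of all genes were called. Nr4a1, Egr2, Egr3, Nab2 and Nr4a2 were named after their values were seen.

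**Figure D4:**
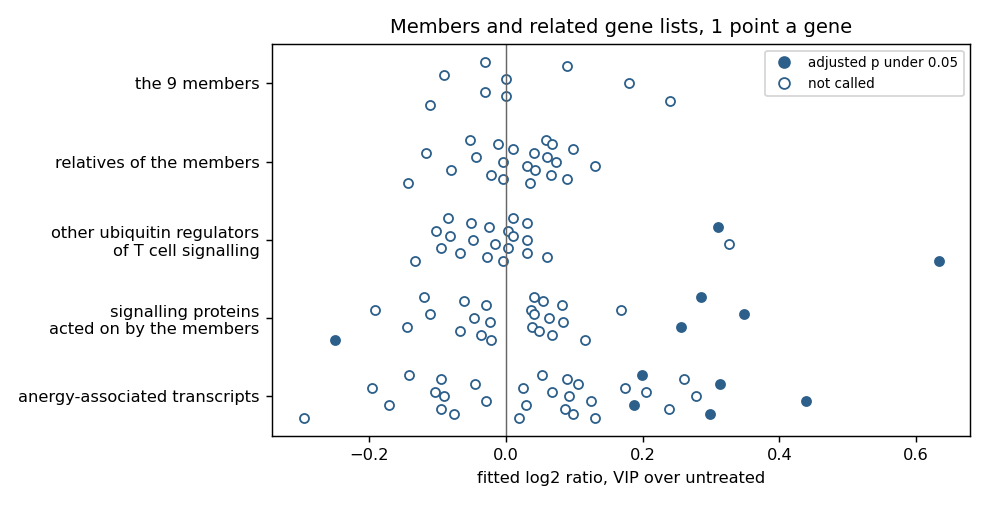
Fitted log2 ratio of VIP over untreated for each gene of the 9 and of 4 related lists, 1 point a gene. The fit was to all 6 arrays, and a gene with a spot left out had fewer values. Filled points had a limma adjusted p under 0.05. No point is filled among the 9 genes or their relatives, and the filled point farthest to the right is Grap2 at 0.63.

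Promoter windows of 300 bases from RefSeq on GRCm38.p6 were at hand for 7 of the 9 genes, 12 windows in all. The cAMP response element TGACGTCA, searched on both strands, was in 0 of the 12, and it was in 1.79% of all 32851 windows. The shorter motif TGACG, which the full element contains, was searched on both strands too and was in 3 of the 12, 1 of 2 windows of Nedd4 and 2 of 4 of Dgka, and in 20.8% of all windows. The single windows of Cblb and Rnf128 held neither.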

How the data were processed

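Total RNA of activated CD4 T cells with and without VIP was measured on Agilent arrays in 2 colours, in 6 replicates. The deposited spot intensity, its local background and the flags come from Agilent Feature Extraction 9.5.1.1, per the file headers. Each scanner file further gives the deposited log10 ratio of Cy5 over Cy3, and the authors' value table has the same log10 ratios turned to VIP over untreated, to within 4.5e-06. The median of a column of that table was 0, or -0.00022 for replicate 3; its scale and direction follow from this match. Both were used as alternatives. The other values used from the deposited files were flags of 0 or 1.

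Mean intensity was corrected with normexp (offset 50) and normalized by loess within arrays, with the 1639 control spots at weight 0 and outlier-flagged spots left out, in limma 3.58.1 (R 4.3.3). Spots of a probe were averaged, and a gene was given by its brightest probe. Channel intensities were scaled between arrays by Aquantile, for description only. Of 43379 spots, 26788 were named by accession and 1810 by synonym through RefSeq gene annotation, and 14781 kept the name in the file. Probes well above background on at least 3 arrays with VIP or at least 3 untreated were tested.

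The log2 ratio was fitted over all genes (lmFit, eBayes) with a VIP effect beside a dye intercept, with 4 residual and 6.23 prior degrees of freedom and Benjamini-Hochberg adjustment at 0.05. Each array is the pair of 1 replicate per the labels, so the pairing is within the array. What the p-values take in is a gene's spread over these 6 arrays, moderated by a prior variance drawn from all genes. The number of arrays limits the precision. Intensity served to pick the brightest probe of a gene, and no level of one gene was read against that of another.

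Files name 3 slides of 2 arrays, 1 of each dye orientation, with VIP in Cy5 at position 2 and in Cy3 at position 4. Alternatives varied background, normalization, filter, flags, dye term, slide, weights, prior, pairing, probe and replicates. The 9 genes and the lists were chosen with earlier results of these data known. Named were the 9 genes, at most 4 called genes of each list by smallest p (2 where none was called), the 3 genes nearest to Cblb, Cd4, Cd3e and sex-linked transcripts. Sequences of Ndfip1 probes are not shown.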

Additional observations from a re-analysis of the deposited data

Results flagged for a closer look

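Of 40 sets of array values examined, 8 had 1 array farther from the others than Dixon's 95% limit, and 7 of the 8 were in replicate 5. Chance flags about 1 in 20 independent sets, but these sets were neither independent nor chosen apart from the pattern. AK049577 and LOC100042016 were picked for their likeness to Cblb, and 4 of the 8 are sex-linked transcripts that differ together, so the tally is a description only. For the first Cblb probe the log2 ratio of replicate 5 was -0.58, where the other 5 arrays lay between 0.26 and 0.58. Near it in pattern, AK049577 had -0.51 and LOC100042016 had -0.64 on replicate 5. The sex-linked transcripts stood apart on the same array, with log2 ratios of 4.08 for Ddx3y, 4.18 for Eif2s3y, 1.06 for Kdm5d and -3.29 for Xist. For Dgkz the array that stood apart was replicate 6, at 0.22, where the others lay between -0.28 and -0.10. The part of the sex-linked difference in the Cblb ratio of replicate 5 was not tested.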

How the results depend on the processing

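Over 20 alternatives the count of called members of the 9 was 0, except without replicate 5, where it was 1. The fitted log2 ratio stayed above 0 in 20 of 20 for Cblb (0.11 to 0.41), Rnf128 (0.14 to 0.23) and Dgka (0.07 to 0.15). It stayed below 0 in 20 of 20 for Dgkz (-0.16 to -0.07) and Itch (-0.13 to -0.03). For Cblb, Rnf128, Dgka and Dgkz several alternatives gave the main value again. These were both filters, flagged spots kept, no dye term, slide as a block, the prior and unpaired channels. Agilent's log ratio and the authors' table gave the same values as each other. The 20 were thus not independent checks of the sign. The adjusted p of Cblb ran from 0.00091 to 1 and that of Rnf128 from 0.074 to 1. For Cblb 0.11 was the mean over both probes. The other 4 genes changed sign in some alternatives, with no call. Ndfip1 was -0.0057 with normexp offset 0 and -0.00038 with Agilent's log ratio and with the authors' table. Nedd4 was 0.0033 with median centring, 0.145 with flagged spots kept, 0.0032 with array weights and 0.047 as the mean over probes. Peli1 was 0.052 with median centring and 0.010 with array weights. Cbl was -0.038 as the mean over probes. Leaving out 1 replicate gave Cbl -0.0231 to 0.0269, Ndfip1 -0.0432 to 0.0681, Nedd4 -0.0764 to 0.0188 and Peli1 -0.0612 to 0.0350.

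Over all genes and probes, against 483 genes and 713 probes called, normexp offset 0 gave 81 and 117, Agilent's log ratio 12 and 38, the authors' values also 12 and 38, median centring 120 and 182, no dye term 201 and 299, channels fitted without the array pairing 1 and 3, and slide as a block 313 genes. Leaving out 1 replicate gave 193 to 822 genes and 290 to 1187 probes, with more calls without replicate 5 and fewer without each of the others. Of the called genes 75.4% were higher, against 88.9% with offset 0, 93.3% with median centring, 100% with Agilent's log ratio, 68.2% with array weights, and 69.1% without replicate 5 to 85.9% without replicate 4. The cause was not tested. The median log2 ratio over all genes was 0 after loess, -0.001 after median centring and -0.002 by Agilent's ratio. No further paired analysis was possible because each array is already the pair of 1 replicate. The calls of the related lists without replicate 5 were added after the data were seen. The calls of these lists under the other alternatives were not examined gene by gene.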
